A study of Mus musculus with 6 samples.

Results

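The 8 genes described here encode proteins that airway epithelium releases onto its surface as a chemical defence: Bpifa1, Bpifb1, Reg3g, Lyz1, Lyz2, Lcn2, Ltf and Pigr. They were named by gene symbol, with no threshold on a measured value, by a choice made with earlier results of these data known. All 8 symbols were among the 20483 genes of the count table, and all 8 passed the filter on low counts in secretory, multiciliated and basal cells.

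The study made a missense allele of Dnaaf5, a factor needed to assemble the dynein arms of motile cilia, in C57BL/6 mice and compared homozygous animals (MIS/MIS) with wild-type littermates (WT/WT). The allele was made with CRISPR-Cas9 and carries a synonymous change beside the missense change. Tracheal epithelial cells of 3 WT/WT mice (WT1, WT2 and WT3) and 3 MIS/MIS mice (MT1301, MT1306 and MT1383), labelled as 12 weeks of age, were expanded in culture, differentiated at an air-liquid interface and read by droplet single-cell RNA sequencing of transcript 3′ ends. Each library came from the culture of 1 mouse, so the cells lack the immune cells and air flow of a trachea, and the labels name no infection or stimulus.

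The table held 23871 cells, with 2673 to 6710 per mouse and a median of 21327 to 35383 unique molecular identifiers (UMIs, counted molecules) per cell. MT1383 had the most cells and the lowest median. Only 67 cell barcodes of 23804 occurred in more than 1 mouse. The cell table placed the cells in 16 types, among them 2 secretory, 4 multiciliated and 8 basal clusters. Dnaaf5 stood at 10.8, 9.87 and 13.6 CPM (UMIs of a gene per 1000000 UMIs) in the WT/WT mice and at 15.2, 17.3 and 21.2 CPM in the MIS/MIS mice. A missense transcript is counted like a wild-type one, so this level does not check the genotype labels.

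Airway secretory cells line the surface between the ciliated cells and release these proteins into the surface liquid. Bpifa1 (also called SPLUNC1) and Bpifb1 belong to a family related to bactericidal/permeability-increasing protein. Reg3g is a C-type lectin that acts on Gram-positive bacteria. Lysozyme, made in the mouse from the neighbouring genes Lyz1 and Lyz2, cuts bacterial cell wall peptidoglycan. Lcn2 binds the siderophores with which bacteria collect iron, and Ltf (lactoferrin) binds the iron itself. Pigr is the receptor that carries polymeric immunoglobulin across the epithelium.

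The genes lie on 5 chromosomes of the mouse build GRCm38 (GENCODE M21), the same assembly as the mm10 named for the counts. Pigr is at chr1:130826684-130852249 on the plus strand. Lcn2 is at chr2:32384633-32388252 on the minus strand. Bpifa1 (chr2:154142880-154149219) and Bpifb1 (chr2:154190818-154220369) are neighbours on the plus strand with 41598 bases between them. Reg3g is at chr6:78466269-78468872 on the minus strand and Ltf at chr9:111019271-111042767 on the plus strand. Lyz2 (chr10:117277331-117282321) and Lyz1 (chr10:117287797-117292868) lie side by side on the minus strand with 5475 bases between them.

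The lysozyme pair shows how alike genes of very different counts can be. The 80 bases that lie 130 to 51 bases before the RefSeq start of each gene (GRCm38.p6, minus strand; for Lyz2 the GENCODE start lies 49 bases from it) are printed 5′ to 3′, with the positions at which the pair differs in capitals.
Lyz1, chr10:117292919-117292998: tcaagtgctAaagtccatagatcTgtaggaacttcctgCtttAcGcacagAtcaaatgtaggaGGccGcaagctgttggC
Lyz2, chr10:117282323-117282402: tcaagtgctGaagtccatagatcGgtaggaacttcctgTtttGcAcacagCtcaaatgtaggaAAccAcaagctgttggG
They differed at 10 of 80 positions, an identity of 87.5%. The GENCODE transcripts, of 1263 and 1316 bases, were identical at 96.0% of 1262 aligned bases and at 96.9% over the last 300 bases, where 3′ reads fall, and shared unbroken runs of up to 118 bases. Reads inside such a run cannot be assigned to 1 of the genes, so the split of counts between Lyz1 and Lyz2 is uncertain. All the same, Lyz2 had 616463 UMIs and Lyz1 had 3589.

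Reg3g and Bpifa1 were the members with the most UMIs, and the 100 bases just before their starts (RefSeq, GRCm38.p6) each hold the letters TATAAAA (shown in capitals), which match the core promoter motif known as the TATA box.
Reg3g, chr6:78468875-78468974, minus strand: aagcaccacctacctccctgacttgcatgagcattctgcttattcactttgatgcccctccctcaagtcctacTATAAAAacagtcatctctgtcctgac
Bpifa1, chr2:154142780-154142879, plus strand: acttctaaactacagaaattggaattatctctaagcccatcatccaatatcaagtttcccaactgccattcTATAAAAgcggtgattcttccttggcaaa
The first letter of the motif is 27 bases before the start of Reg3g and 29 bases before that of Bpifa1. On either strand of the 250 bases before a start, TATAAAA occurred for 2 of the 8 members and in 4.98% of 32851 mouse promoter windows. A C/EBP type of motif, TTNNGNAAT, occurred for Lyz1 and Ltf and in 10.2% of windows, and an NF-kB type of motif for 0 of the 8 and in 1.41% of windows. No member held more than 1 of these motifs, and the matches are descriptions of sequence, not of binding.

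Transcripts of the defence proteins were abundant in these cultures, and most of their summed counts came from 1 of the 16 types, Secretory1. The 8 members together took 2.1% of all UMIs and 6.02% of the UMIs of Secretory1, with 4.63% to 7.1% in the WT/WT mice and 4.54% to 8.68% in the MIS/MIS mice. Reg3g alone had 9556268 UMIs, 1.28% of the total and the 7th highest of all genes, and Bpifa1 had 3751682, the 19th highest. Ltf followed with 1144307, Lcn2 with 617115 and Lyz2 with 616463. Pigr had 50311 and Bpifb1 only 2414. Counting 3′ ends gives molecules regardless of transcript length, so these totals compare molecules captured. Secretory cells gave 91.1% of Bpifb1 counts, 86.4% of Bpifa1, 78.7% of Pigr, 77.5% of Reg3g, 75.5% of Lcn2, 60.3% of Ltf, 58.9% of Lyz2 and 56.2% of Lyz1. Basal cells gave 32.2% of Ltf and 20.5% of Lcn2, and multiciliated clusters gave 39.6% of Lyz1 and 30.8% of Lyz2.

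**Figure D1:**
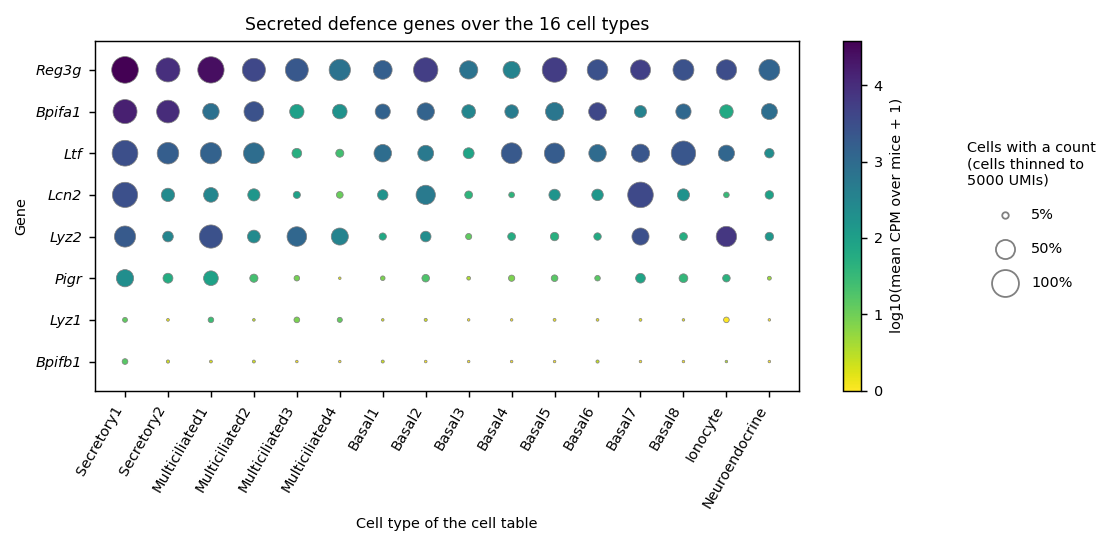
Dot plot of the 8 genes (rows) over the 16 cell types of the cell table (columns), with colour for log10 of the mean CPM over mice plus 1 and dot area for the share of cells with a count after each cell was thinned to 5000 UMIs. Secretory1 carries the darkest dots for Reg3g and Bpifa1, while Lcn2 is also dark in Basal7 and Lyz2 in Multiciliated1, Basal7 and ionocytes.

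The types were defined by the authors from the same counts, so levels over types are given as a description with no test. A level is the CPM of the summed counts of 1 mouse in 1 type, and means and SDs run over the mice with at least 10 cells of the type. Summed marker lists of the named classes each peaked in a type of their own class. The basal list peaked in Basal4 at 8910 CPM, the secretory list in Secretory1 at 24542 CPM and the multiciliated list in Multiciliated4 at 5299 CPM. The ionocyte and neuroendocrine lists peaked in the types of those names. A peak in 1 cluster does not check the labels of the other clusters of its class. In a pair of clusters that matter below the markers of the class were low. Multiciliated1 had Foxj1, the master regulator of motile cilia, at 70.8 CPM against 717 CPM in Multiciliated2, with Tppp3, a further multiciliated marker, at 692 CPM against 2899 CPM in Multiciliated4. Its secretory markers were mixed: Cyp2f2 stood at 9388 CPM (9394 CPM in Secretory1, and 9786 CPM at its highest, in Basal8), while Scgb3a2 stood at 1184 against 13754 CPM, Scgb1a1 at 86.4 against 729 CPM and Scgb3a1 at 41.9 against 661 CPM in Secretory1. Basal7 had the basal keratins Krt5 at 124 CPM and Krt14 at 889 CPM, against 1202 and 1639 CPM in Basal4. Cyp2f2 stood there at 7889 CPM, Scgb3a2 at 792 CPM, Scgb1a1 at 17 CPM and Scgb3a1 at 16.4 CPM. Whether single droplets there held more than 1 cell was not tested.

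Reg3g was highest in Secretory1 and next in Multiciliated1. In Secretory1 it stood at 40128, 32650 and 39431 CPM in the WT/WT mice and at 27883, 30628 and 58875 CPM in the MIS/MIS mice, a mean of 38266 ± 11200 CPM (SD, n = 6). Multiciliated1 followed with 25492 ± 7211 CPM (n = 6) and Secretory2 with 9373 ± 2830 CPM (n = 6), and this order held in 6 of 6 mice at each step. Below that the neighbours changed places between mice. Basal5, Basal2 and Basal7 had means of 5820, 5530 and 5290 CPM with ranges of 2090 to 13226, 2402 to 14807 and 741 to 16937 CPM. The lowest mean, 333 ± 180 CPM over 4 mice, was in Basal4, the cluster with the highest level of the hillock keratins Krt13 and Krt4. Between Secretory1 and Basal4 the mean of Reg3g thus ran from 38266 to 333 CPM.

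Nearly every cell had some Reg3g count, which is a weak sign of production. A count was found in 99.8% of Secretory1 cells (95% Wilson interval 99.6% to 99.9%) and still in 83.4% of 163 neuroendocrine cells (77.0% to 88.4%), a type not known to secrete it. With every cell thinned to 5000 UMIs the shares were 98.3% and 60.1%, and median depths were 33387 and 10351 UMIs. Free RNA gives counts in cells that do not express a gene, and in MT1383 a single neuroendocrine cell of 108 held 67.3% of the Reg3g counts of that type. Shares of cells in the low clusters are therefore not read as expression. These intervals, and those given below for other genes, pool the cells of all mice. They cover counting error only and not the spread between mice. The lower depth of neuroendocrine cells holds for those genes too, and 108 of the 163 cells came from MT1383.

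Bpifa1 was a gene of both secretory clusters, with Secretory1 above Secretory2 in 6 of 6 mice. Its CPM in Secretory1 was 22128, 8145 and 12677 in the WT/WT mice and 9452, 19258 and 18547 in the MIS/MIS mice, with means of 15035 ± 5739 CPM in Secretory1 and 10470 ± 3618 CPM in Secretory2 (SD, n = 6). Basal6 came next with 4033 ± 1053 CPM and Multiciliated2 with 2677 ± 895 CPM, both from a minority of cells: the median cell had 58.7 and 106 CPM, and 3.06% and 3.03% of cells held 50% of the counts. Multiciliated3, the most numerous ciliated cluster, had 99.99 ± 31.8 CPM. In the neuroendocrine type the share of cells with a Bpifa1 count was 58.9% (51.2% to 66.2%), against 94.6% (93.9% to 95.2%) in Secretory1.

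Single mice and cells decided some Bpifa1 values. Basal8 of WT1 stood at 4522 CPM while the other mice with enough cells had 48.9 to 579 CPM. Counts were found in more of the cells of WT1 there, with a thinned share of 71.7% against 18.03% to 32% in the others. The level itself lay in few cells. Of the 60 cells of WT1, 4 held 50% of the 10603 UMIs and the highest cell held 16.5%, while the median was 15 UMIs per cell. In the neuroendocrine cells of WT2, at 2292 CPM, 1 of 17 cells held 98.9% of the counts. The place of Basal8 in the order of types thus rests on WT1 and that of neuroendocrine cells on 1 cell.

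Within Secretory1 the secreted genes were spread very unequally over cells. The highest 10% of cells of a mouse held 52.2% ± 9.4 of its Bpifa1 counts and 55.5% ± 6.2 of its Lyz2 counts (SD, n = 6 mice), against 30.9% ± 3.9 for Reg3g and 32.8% ± 2.8 for Ltf. Lcn2 lay between, at 41.3% ± 5.6. In every mouse the share for Bpifa1 (43.6% to 67.0%) was above the highest mouse of Reg3g (35.9%). The median Secretory1 cell had 2520 CPM of Bpifa1 and 31264 CPM of Reg3g, so the mean of Bpifa1 was carried by a minority of cells. High cells of 1 gene were only weakly the high cells of another: after thinning, the rank correlation over cells within a mouse (a description, over 6 mice) had a median of 0.04 between Bpifa1 and Reg3g, -0.13 between Bpifa1 and Ltf, 0.18 between Bpifa1 and Lcn2 and 0.33 between Reg3g and Ltf. These cells share a library and a depth, and sparse counts lower such values.

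**Figure D2:**
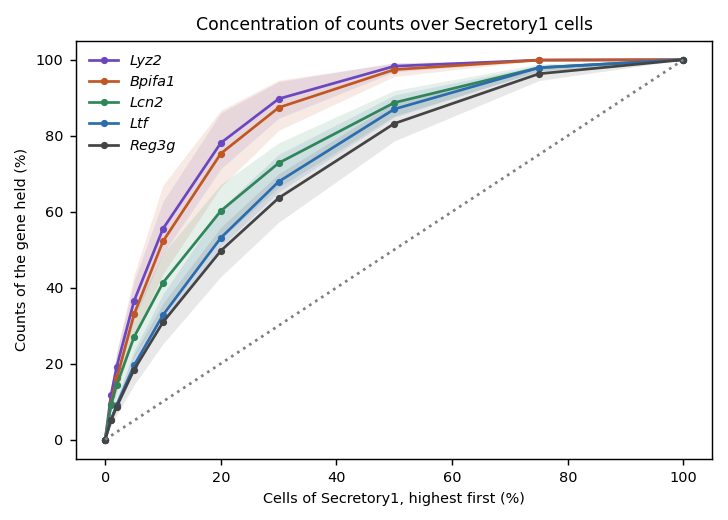
Share of the counts of 5 genes (vertical axis, percent) held by Secretory1 cells taken from the highest down (horizontal axis, percent of cells); lines are means over 6 mice, bands run from the lowest to the highest mouse, and the dotted line marks an even spread. Lyz2 and Bpifa1 rise steepest, reaching 55.5% and 52.2% of counts at 10% of cells, and Reg3g least steeply, reaching 30.9%.

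Bpifb1, the neighbour of Bpifa1 on chromosome 2, came mostly from Secretory1 and was rare there. Its level in Secretory1 was 14.95, 3.05 and 13.0 CPM in the WT/WT mice and 2.73, 30.1 and 22.4 CPM in the MIS/MIS mice. It was above Basal6, the next type, in 6 of 6 mice, and Secretory1 held 86.4% of its UMIs. Of Secretory1 cells 9.92% had a count (9.11% to 10.8%, and 4.27% to 20.05% over mice), and 0 of 163 neuroendocrine cells did. That count of 0 allows a share of up to 1.84% by 3 counts and 2.3% by the Wilson interval, for cells with a UMI at the lower median depth of 10351 UMIs and not for cells that express the gene. In WT3, 2 of 524 Secretory1 cells held 50% of the Bpifb1 counts of the mouse, and 1 of them held 30%. At this depth its level in the other types, at most 1.498 CPM on average over types with 3 mice or more, was not distinguishable from few molecules.

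The iron-withholding pair Lcn2 and Ltf reached beyond the secretory cells into some basal clusters. Lcn2 was highest in Basal7, at 4263, 3977 and 2526 CPM in the WT/WT mice and 6008, 3755 and 1498 CPM in the MIS/MIS mice, a mean of 3671 ± 1546 CPM (n = 6), from 510 cells. Secretory1 had 2864 ± 1123 CPM, and Basal7 was above Secretory1 in 3 of 6 mice, so these do not differ beyond their spread. Both were above Basal2 (511 ± 122 CPM) in 6 of 6 mice. A Lcn2 count was found in 94.7% of Basal7 and 96.9% of Secretory1 cells, against 16% of neuroendocrine cells (11.1% to 22.3%). Multiciliated3 showed a further single mouse: WT3 stood at 479 CPM and the other 5 mice at 8.22 to 48.8 CPM, and 5 of its 265 cells held 50% of the counts.

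Ltf was the most even member in Secretory1 and the least tied to it. Its CPM there was 3202, 2905 and 3054 in the WT/WT mice and 3607, 2708 and 3014 in the MIS/MIS mice, 3082 ± 306 (SD, n = 6), a highest-to-lowest ratio of 1.33 where the other members had 1.93 to 11.01. Basal8 reached 2238 ± 503 CPM (n = 5) and Basal4 2087 ± 648 CPM (n = 4), with a count in 94.98% and 74.2% of cells, against 22.7% of neuroendocrine cells (16.9% to 29.7%). Basal7 (636 to 3882 CPM) and Basal5 (272 to 3468 CPM) varied widely between mice. Of the first 5 types in the order, none was above its neighbour in every mouse. Basal3, the cluster with the highest level of the basal marker Ngfr, had 78.8 ± 37.8 CPM and Multiciliated3 49.4 ± 30.4 CPM.

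The lysozyme genes departed from the secretory pattern. Lyz2, known as the lysozyme of macrophages and of some lung epithelial cells, was highest among types with 3 mice or more in Basal7, Multiciliated1 and Secretory1, at 2917 ± 4321, 2835 ± 1350 and 2040 ± 511 CPM (n = 6), which cannot be ordered: Basal7 was above Multiciliated1 in 2 of 6 mice and Multiciliated1 above Secretory1 in 4 of 6. Basal7 differed between mice far more than any other member and type with counts in every mouse, 757-fold. It stood at 11494 CPM in WT1, 625 in WT2 and 15.2 in WT3, and at 644, 1965 and 2761 CPM in the MIS/MIS mice. In WT1 the median Basal7 cell had 234 Lyz2 UMIs and 91.7% of 60 cells had a count, against 1 UMI and 52.0% of 152 cells in WT2. Without WT1 the mean of Lyz2 in Basal7 was 1202 CPM. Reg3g in the Basal7 cells of WT1 was also the highest of the 6 mice, at 16937 CPM. Multiciliated3 held 1172 ± 826 CPM of Lyz2, while Multiciliated2 held 250 ± 178 CPM.

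The 28 ionocytes, rare chloride-handling cells marked by Foxi1 at 609 CPM, had the highest Lyz2 level of any type, from few cells. The 19 ionocytes of MT1383 gave 7170 CPM, with a Lyz2 count in 78.95% of them. The 7 of WT3 gave 3318 CPM with a count in 28.57%, and the 2 of WT1 11369 CPM with a count in 50%. Of all 28, 64.3% had a count, and 14.29% held 50% of the counts. Only MT1383 had 10 ionocytes or more, so no spread over mice is given. Among neuroendocrine cells 17.2% had a Lyz2 count (12.2% to 23.7%). The likeness search also named Rragd, whose own highest type was the ionocyte, among the genes nearest to Lyz2.

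Lyz1, the lysozyme of intestinal Paneth cells, was low everywhere. Its mean was highest in Multiciliated1, but 1 mouse made that mean: WT3 had 115 CPM and the others had 2.29 to 22.0 CPM, and 2 of the 98 cells of WT3 held 50% of its counts. Without WT3 the mean was 8.94 CPM, below that of Secretory1. Over 6 mice Secretory1 followed with 12.0 ± 8.06 CPM, Multiciliated4 with 11.5 ± 4.39 CPM (n = 5) and Multiciliated3 with 7.36 ± 3.32 CPM. The Lyz1 counts of Secretory1 lay in few cells too: 1 of 370 cells held 57.7% of them in WT1, and 4 of 1413 held 50% in MT1383. Only the step from Multiciliated4 to Multiciliated3 held in every mouse, 5 of 5. It rests on 18 Lyz1 UMIs in Multiciliated4, from 2 to 7 per mouse, so it is not distinguishable from few molecules. The share of cells with a Lyz1 count was 8.90% in Multiciliated4, 13.5% in Multiciliated3 and 7.98% in Secretory1 (7.25% to 8.78%). Of 163 neuroendocrine cells 0 had one, which at their lower depth allows up to 1.84% by 3 counts and 2.3% by the Wilson interval.

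Macrophages, neutrophils and plasma cells also make some of these proteins, and most of their markers were at or near 0. Ptprc, the pan-leukocyte gene, had 22 UMIs in all cells, and Adgre1, Marco, C1qa, C1qb and Tyrobp were not among the genes of the table. Of the macrophage list 5 of 10 genes were present, with a summed level of 19.0 to 23.5 CPM in the WT/WT mice and 18.2 to 25.1 CPM in the MIS/MIS mice. That sum was nearly all Cd68, a lysosomal gene with 14817 UMIs that peaked in Secretory2. The neutrophil list (5 of 9 genes present) summed to 0.908 to 1.75 and 0.644 to 1.01 CPM, and the B and plasma cell list (4 of 4) to 1.21 to 1.97 and 1.52 to 2.96 CPM. Most of the latter was Mzb1, with 1125 UMIs and a peak of 24.4 CPM in Multiciliated4. Jchain had 129 UMIs, Ighm 155 and Cd79a 25. Over all Basal7 cells, Ptprc had no count and Csf1r stood at 0.135 CPM.

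Pigr followed Reg3g most closely. In Secretory1 it stood at 297, 84.1 and 140 CPM in the WT/WT mice and at 99.2, 256 and 419 CPM in the MIS/MIS mice, 216 ± 131 CPM (n = 6), and it was lower in Multiciliated1 in 6 of 6 mice (90.1 ± 48.0 CPM). Of Secretory1 cells 68.5% had a Pigr count (67.1% to 69.8%), with 54.4% to 84.5% over the 6 mice. The share in neuroendocrine cells was 3.68% (1.70% to 7.80%). After thinning the pooled shares were 40.7% and 1.23%. Over the 16 types Pigr and Reg3g correlated at r = 0.86 on the log2(CPM + 1) scale, the highest of the 28 pairs of members, ahead of Ltf and Pigr at 0.78 and Lcn2 and Pigr at 0.77. Bpifa1 and Lyz2 had r = -0.16 and Lyz1 and Ltf r = -0.23. The 16 points are types of the same 6 cultures, so these values describe likeness only.

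**Figure D3:**
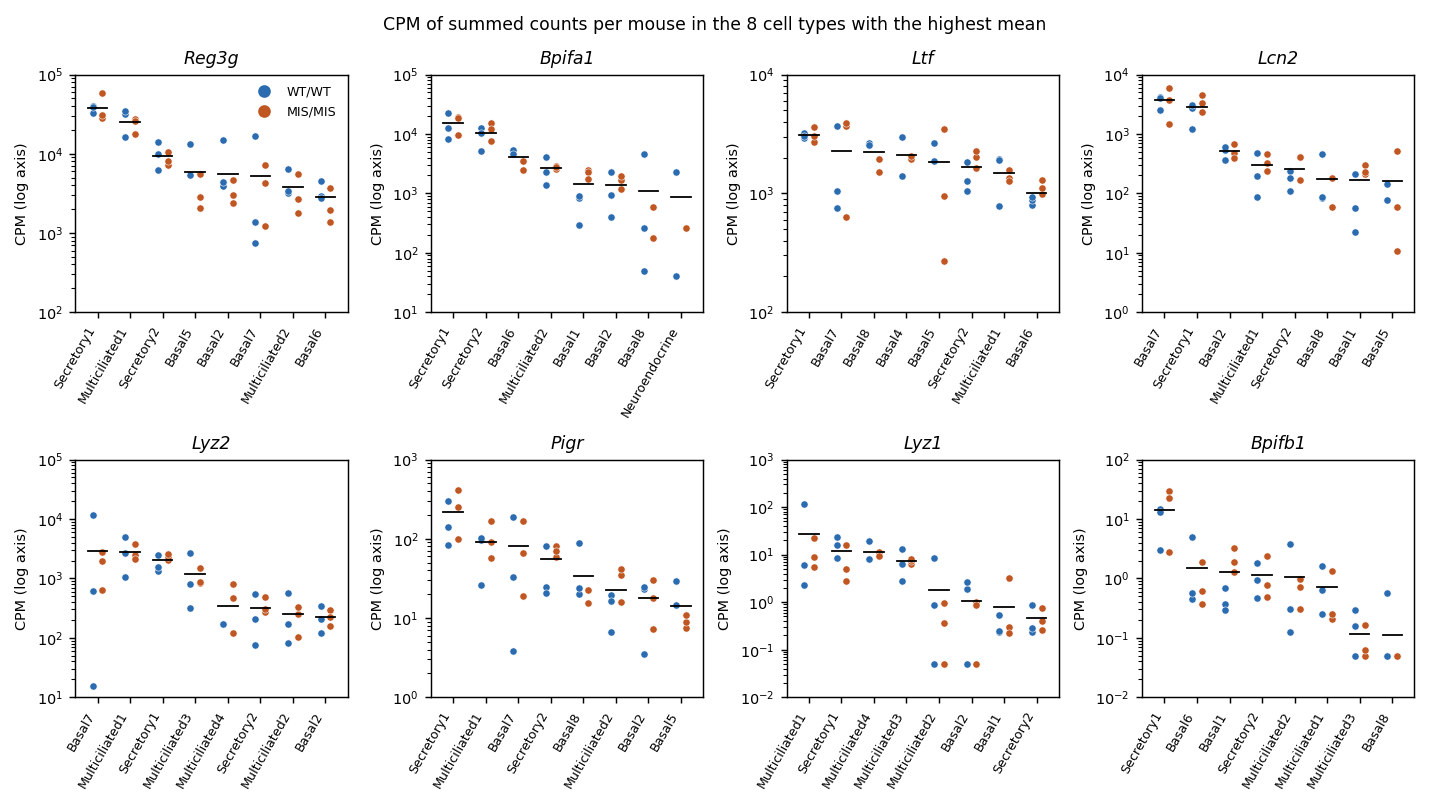
CPM of summed counts per mouse (log axis, 1 point per mouse with at least 10 cells, blue WT/WT and orange MIS/MIS, black bar the mean over mice) in the 8 types with the highest mean of each gene among types with 3 mice or more; values of 0 are drawn at 0.05. Points of both genotypes mix in most types, and single mice stand apart for Lyz2 in Basal7, Lyz1 in Multiciliated1 and Bpifa1 in Basal8.

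Outside the members, the genes with the most similar levels over the 16 types were taken as the 3 highest correlations among 6031 genes with at least 50 CPM in some type. For Reg3g these were Sftpd (surfactant protein D, r = 0.871), Pigr (0.864) and Gm2a (0.857). Bpifa1 had Pon1 (0.889), Mapk13 (0.820) and Trf (transferrin, 0.802). Bpifb1 had Sult1c2 (0.867), Scgb3a1 (a secretoglobin, 0.820) and Spink1 (0.798). For Pigr they were Slc15a2 (0.884), Pon3 (0.875) and Reg3g (0.864). Ltf had Gabrp (0.906), Kcne3 (0.894) and G6pdx (0.840). Lcn2 had Cd74 (the invariant chain, 0.900), Lox (0.874) and Cyp1b1 (0.863), all 3 highest in Basal7. For Lyz2 they were Prom1 (0.837), Cxcl17 (0.837) and Rragd (0.818), and for Lyz1 Sult1d1 (0.889), Rnf186 (0.859) and Ifitm1 (0.850), which were highest in multiciliated clusters.

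The comparison of MIS/MIS with WT/WT asks whether transcripts of defence proteins change in an epithelium whose cells carry the Dnaaf5 missense allele. No member passed the test in any of the 3 classes. Counts were summed per mouse and class and fitted with limma-voom over all genes, with p-values adjusted by the Benjamini-Hochberg method. In multiciliated cells 0.00704% of 14206 genes passed an adjusted p of 0.05, in secretory cells 0.00735% of 13610 and in basal cells 0% of 14615. At an unadjusted p under 0.05 there were 614, 258 and 334 genes, and none of them was a member. The single gene called in multiciliated and in secretory cells was Wdfy1, which is no member.

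In secretory cells 7 of 8 members had a fold change above 0, with a median log2 fold change of 0.38 against -0.004 over all genes, and none passed the test. Pigr had the largest, 0.70 with a 95% interval of -0.74 to 2.14. It stood at 205, 59.5 and 102 CPM in the WT/WT mice and at 83.2, 167 and 384 CPM in the MIS/MIS mice. Lcn2 stood at 1653, 748 and 2118 CPM against 1477, 2451 and 3079 CPM, a log2 fold change of 0.68 (-0.29 to 1.66). Both genes overlapped between the genotypes, and MT1383 was the highest mouse for each. Bpifa1 had 0.27 (-0.65 to 1.19), Reg3g 0.03 (-0.91 to 0.98), Lyz2 0.48 (-0.25 to 1.21), Bpifb1 0.64 (-1.84 to 3.13) and Lyz1 -0.95 (-2.70 to 0.80). Ltf had the narrowest interval, -0.06 to 0.47 around 0.20, from 2619, 2136 and 2487 CPM against 2991, 2492 and 2877 CPM. A change of 2-fold in either direction lies outside the interval for Ltf and, narrowly, for Reg3g, and inside it in at least 1 direction for the other 6 members. Multiciliated cells, which share the cultures, made up 11.7% to 16.2% of cells in the WT/WT mice and 16.2% to 32.1% in the MIS/MIS mice, and the part of this in the levels was not tested.

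In multiciliated cells 3 of 8 members had a fold change above 0, with a median of -0.23 against 0.007 over all genes. Log2 fold changes ran from -0.69 (Bpifb1) to 0.49 (Pigr), and Reg3g had -0.50 (-1.33 to 0.34). The value of Bpifb1 rests on few molecules, at 0.129 to 1.04 CPM per mouse. In basal cells 4 of 8 were above 0, with a median of 0.06 against -0.007. Bpifa1 came nearest to a difference there, at 817, 1226 and 744 CPM in the WT/WT mice and 1271, 1152 and 1684 CPM in the MIS/MIS mice, a log2 fold change of 0.52 (-0.02 to 1.06, limma-voom unadjusted p = 0.0553, adjusted p = 1). The groups overlapped for 8 of 8 members in each class, where 10.0%, 5.50% and 7.96% of the genes tested did not overlap in multiciliated, secretory and basal cells.

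**Figure D4:**
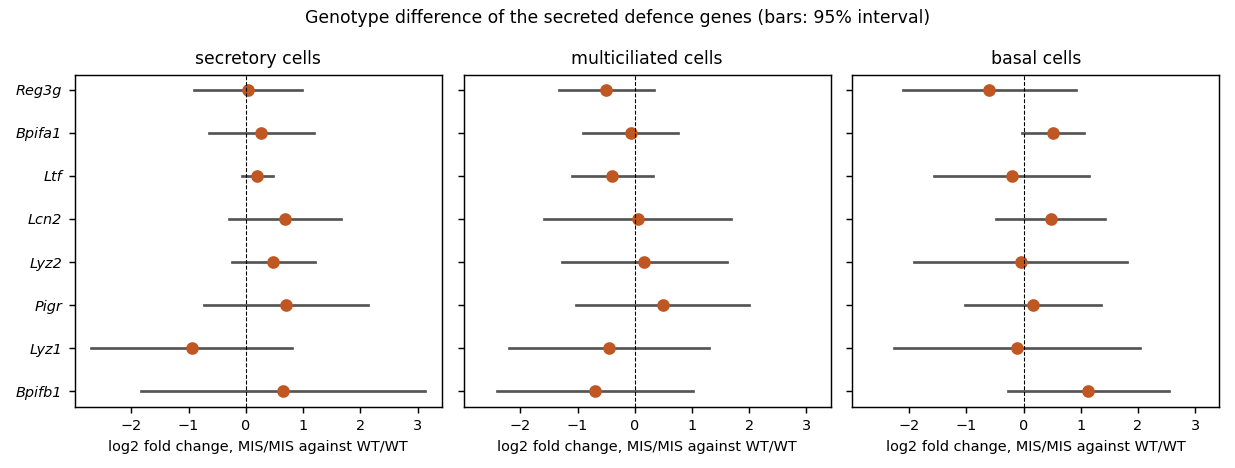
Log2 fold change of MIS/MIS against WT/WT for the 8 genes in secretory, multiciliated and basal cells (points, limma-voom on sums per mouse, 3 mice per genotype) with 95% intervals (bars); the dashed line marks no difference. Every interval includes 0, and Ltf in secretory cells has the narrowest.

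Mice of the same genotype differed from each other more for these genes than for most. The SD of log2 CPM within a genotype was 0.15 to 1.44 for the members in secretory cells, where the median gene had 0.14. It was above the 90th percentile of all genes tested for 7 of 8 members in secretory cells, 8 of 8 in multiciliated cells and 6 of 8 in basal cells. Ltf in secretory cells was the exception at the 50.5th percentile.

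No member passed the test of whether the genotype difference itself differed between classes. Of 15134 genes tested for a genotype effect that differs between secretory and multiciliated cells, with the mouse as a block, 0% passed, and of 14888 between secretory and basal cells, 0%. At an unadjusted p under 0.05 the counts were 522 and 470. Ltf, Bpifb1 and Reg3g were among the 522, with log2 differences of 0.60 ± 0.23, 1.69 ± 0.72 and 0.51 ± 0.22 (SE) and a limma-voom adjusted p of 0.992 each. All 3 were positive, that is, the log2 fold change of MIS/MIS against WT/WT was higher in secretory than in multiciliated cells. Bpifb1 stood at only 0.129 to 1.04 CPM per mouse in multiciliated cells, so its difference rests on few molecules.

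Fitting the clusters one by one, chosen after the class results were seen, gave no call, and in 1 cluster, Basal1, most members were higher in every MIS/MIS mouse. The 10 clusters with at least 10 cells in every mouse gave 66 pairs of a member and a cluster. None passed an adjusted p of 0.05, a call that 0.00763% of genes reached over the 10 fits. The genotypes did not overlap in 10 of 66 pairs (15.2%), against 8.68% over all genes, and 16 pairs (24.2%) had an unadjusted p under 0.05, against 3.72%. Of the 10 pairs, 6 were in Basal1. Outside Basal1, 10 of 59 pairs (16.9%) had an unadjusted p under 0.05, 6 of them higher and 4 lower in MIS/MIS, among them Pigr in Secretory2, Multiciliated2 and Basal3 (all higher). The pairs that did not overlap there were 4 of 59 (6.78%): Bpifa1 in Basal6 (lower in MIS/MIS), Reg3g in Basal3 (lower), Ltf in Basal6 (higher) and Lcn2 in Multiciliated2 (higher).

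In the 2334 Basal1 cells, Bpifa1 stood at 837, 909 and 289.5 CPM in the WT/WT mice and at 2449, 2278 and 1761 CPM in the MIS/MIS mice, a log2 fold change of 1.69 (0.62 to 2.76). Lyz2 stood at 47.4, 29.7 and 15.7 CPM against 72.0, 78.4 and 161 CPM, with 1.80 (0.73 to 2.86). Lcn2 stood at 22.7, 56.25 and 207.7 CPM against 215.5, 296 and 225 CPM, with 1.73 (0.15 to 3.31). For each of these genes all 3 MIS/MIS mice lay above all 3 WT/WT mice, for Lcn2 narrowly. Ltf (0.56, 0.11 to 1.02), Pigr (1.17, 0.33 to 2.01) and Bpifb1 (1.92, 0.74 to 3.10, from 2 to 29 UMIs per mouse) did not overlap either. Reg3g did overlap, at 487, 806 and 4726 CPM against 841, 1234 and 1880 CPM, and Lyz1 did not pass the filter on low counts there.

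The 6 members that did not overlap had unadjusted p-values of 0.00504 to 0.0356 and an adjusted p of 0.953 each (limma-voom). In Basal1 0% of 12691 genes passed the adjusted threshold, 10.4% were higher in every MIS/MIS mouse and 2.95% were higher at an unadjusted p under 0.05. The median log2 fold change was 1.69 for the 7 members tested and -0.008 for all genes. The Bpifa1 counts lay in few cells: the cells holding 50% numbered 1 of 136 in WT1, 12 of 632 in WT2 and 3 of 460 in WT3. In the MIS/MIS mice they numbered 9 of 365 in MT1301, 5 of 245 in MT1306 and 7 of 496 in MT1383. For Ltf the cells holding 50% were 3.16% to 7.86% of the Basal1 cells of a mouse. After thinning, the share of Basal1 cells with a Bpifa1 count overlapped, at 36.03%, 25.95% and 21.7% in the WT/WT mice and 34.5%, 39.2% and 37.7% in the MIS/MIS mice. The shares of Pigr and Bpifb1 overlapped too. Those of Lyz2 (3.48% to 6.62% against 7.67% to 10.6%), Ltf (30.4% to 41.2% against 46.1% to 53.8%) and Lcn2 did not. The share with a Lcn2 count was 2.94%, 9.34% and 13.9% in the WT/WT mice and 18.4%, 19.6% and 18.8% in the MIS/MIS mice.

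Some markers of cell class also differed in level between the genotypes in the same cluster, and none passed the adjusted test. Scgb3a2, a secretoglobin of secretory cells, stood at 186, 419 and 176 CPM in the WT/WT mice and at 462, 873 and 679 CPM in the MIS/MIS mice. The secretory list of 5 genes, mostly Cyp2f2, summed to 1213 to 2055 CPM against 2253 to 3308 CPM, with Muc5b at or near 0. Of the others, Scgb1a1 (log2 fold change -0.35 ± 0.65, SE), Scgb3a1 (0.89 ± 0.70) and Cyp2f2 (0.47 ± 0.25) overlapped. Krt14, a basal keratin, stood at 2196, 795 and 2768 CPM against 683, 533 and 816 CPM, a log2 fold change of -1.47 ± 0.40 with an overlap of WT2 and MT1383. Krt5 had -1.01 ± 0.40, Trp63 -0.82 ± 0.52, Ngfr -0.47 ± 0.58 and Krt15 0.01 ± 0.26, and the basal list summed to 2358 to 6374 CPM against 2611 to 3305 CPM. Median depths overlapped, at 23298 to 38460 against 24040 to 33077 UMIs per cell. Whether the defence genes in Basal1 followed the make-up of the cluster was not tested.

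**Figure D5:**
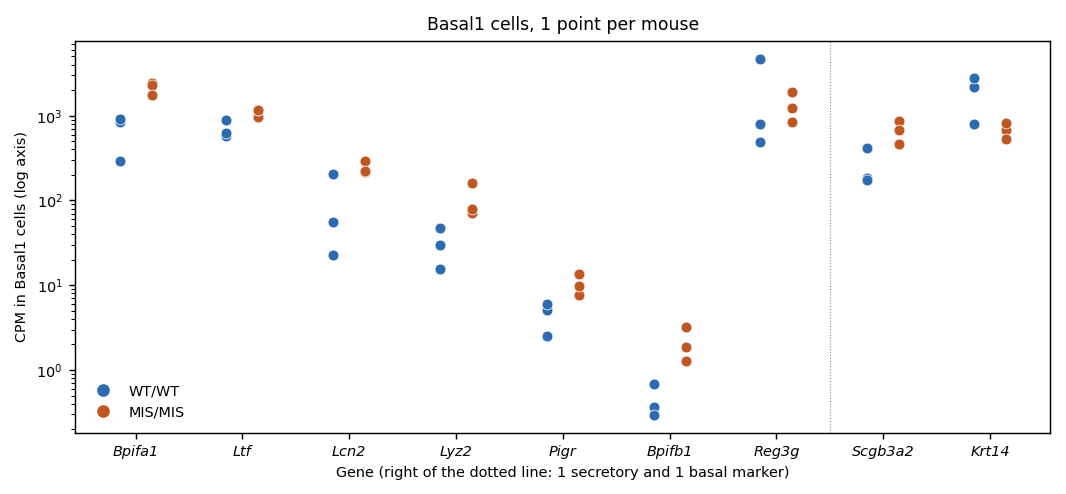
CPM in Basal1 cells (log axis, 1 point per mouse, blue WT/WT and orange MIS/MIS) of 7 defence genes and, right of the dotted line, of the secretory marker Scgb3a2 and the basal marker Krt14. The orange points lie above all blue points for 6 of the 7 defence genes and for Scgb3a2, and Reg3g overlaps.

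Other secreted defence genes were read from the same fits. Of a list of 39, 34 were in the table and 23 were tested in secretory, 19 in multiciliated and 26 in basal cells. None passed in any class. Their median log2 fold changes were 0.12, -0.05 and 0.02 against -0.004, 0.007 and -0.007 over all genes. The 3 with the highest level were Wfdc2, a whey acidic protein of secretory epithelium, Sftpd and Cxcl17, a mucosal chemokine. Wfdc2 peaked in Multiciliated1 at 16030 CPM (12735 to 20106 over 6 mice), Sftpd in Secretory1 at 1278 CPM (1093 to 1408) and Cxcl17 in Secretory1 at 1040 CPM (742 to 1591). Their log2 fold changes in secretory cells were -0.04 ± 0.11, 0.12 ± 0.14 and 0.38 ± 0.34 (SE).

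Regulators that act upstream of such genes (interleukin receptors, NF-kB, STAT and C/EBP factors) were tested in the same way. All 18 of that list were in the table, 17 were tested in each class and none passed. The 3 with the highest level were the C/EBP factors Cebpb and Cebpd and the signal transducer Stat3. Cebpb peaked in Basal7 at 548 CPM (380 to 762 over 6 mice), Cebpd in Secretory2 at 252 CPM (194 to 313) and Stat3 in neuroendocrine cells at 169 CPM (126 to 207, n = 3). In secretory cells their log2 fold changes were -0.05 ± 0.09, -0.23 ± 0.24 and -0.03 ± 0.09 (SE). Il22ra1, the receptor chain for interleukin 22, was not tested in any class and had 62 UMIs in all cells. It is named here after its value was seen.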

How the data were processed

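The deposited values are whole, unnormalised UMI counts from the authors, and a second file lists each cell's mouse, genotype and cell type. Fields in both files were separated by a slash and the letter t and were split at that mark. Per the labels, Cell Ranger 7.1.0 and mm10 were used, while the methods name another Cell Ranger version. The methods state filters of 2500 to 7500 genes and up to 25% mitochondrial reads per cell, yet 655 cells had over 7500 genes. Clusters were named by the authors by hand. Doublets were not called here.

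The members and lists were chosen with earlier results of these data known. Counts were summed per mouse and class or cluster and divided by the sum for CPM (counts per 1000000). Genes with at least 10 counts in 3 mice (scaled to depth) and 15 in all were tested with limma 3.58.1 (R 4.3.3) voom after TMM scaling, with Benjamini-Hochberg adjustment over all genes. The edgeR test planned at first, and DESeq2, were not used, and limma-voom took their place. Interactions had the mouse as a block. The fits were tested on simulated data. Replicates were separate mice, each cultured once, so p-values measure the spread between these cultures. Named genes were the members, the 3 genes most like each over the types, and of each list the genes called or, with none called, the 3 highest. Alternatives covered size factors, filters, thinning to 5000 UMIs, cluster make-up, cells over 7500 genes and single mice. Promoter sequences came from RefSeq (GRCm38.p6), for 8 of 8 members.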

Additional observations from a re-analysis of the deposited data

How the results depend on the processing

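No member passed an adjusted p of 0.05 in any class under any setting run. Genes called numbered 2 in multiciliated cells with equal cluster composition (1 otherwise), 0 in secretory cells with thinning and 0 to 0 with each of the 6 mice left out (1 otherwise), 1 in basal cells with equal cluster composition and 1 with sample weights in limma (0 otherwise), and 0 to 1 in Basal1 with each mouse left out, the 1 being without WT2. Limma-trend, sample weights and all Basal1 settings were chosen after seeing the data. DESeq2 and edgeR were not run. No paired analysis was possible because no label links a mutant library to a wild-type library. With cells thinned to 5000 UMIs the share of cells with a count fell to 81.0% for Bpifa1, 3.93% for Bpifb1, 98.2% for Reg3g, 91.2% for Ltf and 40.0% for Pigr in Secretory1, to 4.18% for Lyz1 in Multiciliated1 and to 87.3% for Lcn2 in Basal7. Every CPM in the highest type moved by less than 1 SD. With 1 mouse left out this was fixed in advance, because removing 1 value cannot move a mean by 1 SD. Those settings therefore do not show that a level is stable. Lyz2 in Basal7 depended strongly on WT1, and Lyz1 in Multiciliated1 on WT3. Of 516 alternative log2 fold changes of members in the 3 classes and 2 interactions, 57 changed sign, all uncalled, and the largest main value among them was 0.77 in size. The cause was not tested.

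With equal cluster composition the values that changed sign were 0.22 for Bpifa1 in multiciliated cells, -0.05 for Reg3g in secretory cells, 0.21 for Lyz2 and 0.32 for Ltf in basal cells, and as interactions -0.01 for Bpifa1 (against multiciliated), 0.00 for Bpifb1 and -0.21 for Ltf (against basal). With sample weights they were 0.03 for Bpifa1, -0.12 for Lyz2 and -0.03 for Lcn2 in multiciliated cells, -0.27 for Reg3g in secretory cells, 0.03 for Lyz1, 0.89 for Lyz2 and 0.40 for Ltf in basal cells, and against basal 0.38 for Bpifb1, -0.34 for Lyz2 and -0.09 for Ltf. Thinning gave -0.18 for Lcn2 in multiciliated cells and 0.35 for Bpifb1 against basal. Limma-trend gave -0.68 for Lyz1 against multiciliated and -0.07 for Reg3g in Basal1, and no filter -0.02 for Reg3g in Basal1.

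With each mouse left out, multiciliated cells gave -0.41 to 0.30 for Bpifa1, -1.43 to 0.63 for Lyz1 (positive without WT3), -0.57 to 0.85 for Lyz2, -0.61 to 0.93 for Lcn2 and -0.24 to 0.86 for Pigr. Secretory cells gave -0.07 to 0.60 for Bpifa1, -0.35 to 2.01 for Bpifb1 and -0.48 to 0.31 for Reg3g (lowest without MT1383). Basal cells gave -0.71 to 0.89 for Lyz1, -0.80 to 0.89 for Lyz2 and -0.63 to 0.47 for Ltf (both highest without WT1), and -0.11 to 0.72 for Pigr. Against multiciliated the ranges were -0.08 to 0.77 for Bpifa1, -1.08 to 1.10 for Lyz1 and -0.09 to 0.81 for Lyz2, and against basal -0.82 to 0.11 for Bpifa1, -0.80 to 0.69 for Bpifb1, -2.0 to 0.24 for Lyz1, -0.13 to 1.26 for Lyz2, -0.38 to 0.92 for Lcn2 and -0.21 to 0.71 for Ltf. Reg3g in Basal1 ran from -0.73 to 0.93, while the other 6 members tested there stayed above 0 in every setting in which they were tested.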
